A study of Vitis vinifera with 11 samples.

Results

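HSP101 (gene number 100232966) and HsfA2 (gene number 100245740) are a pair of grapevine (Vitis vinifera) heat stress genes, taken from the expression tables by their gene numbers. They were chosen with their levels by organ and plant material in these same libraries already known, and they are described here across organ, node and plant material. They are 2 of the 25771 gene numbers in each table, and both passed the filter for testing, which asked for 2 or more libraries with an RPKM of 1 or more. RPKM is a read count scaled to gene length and to the mapped reads of the library, so it allows levels of genes of unequal length to be compared. Because the choice rested on those levels, differences between organs and between plant materials are given as descriptions without a test. The changes along the nodes of an organ and the difference between the picovine lines were not used for the choice and were tested. The slope fit to all 11 libraries is still not independent of the choice. It takes the leaves of both plant materials as 1 organ, so their difference, known beforehand, widens the SE of the slopes. A slope that did not pass in that fit is therefore not read as no change.

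The 11 libraries came from vines grown in controlled conditions, with days at 25 °C and cooler nights, and no heat treatment is named in the labels. Picovines, which are dwarf grapevines, supplied 6 inflorescence libraries, 1 from line 06C021V0046 and 1 from line 06C008V0003 at each of nodes 1, 2 and 3 from the shoot apex. Tendrils were taken at the same nodes from Pinot Meunier L2, the control, with 1 library a node. Leaves had been pooled over the nodes before sequencing, 1 pool from 06C021V0046 and 1 from Pinot Meunier L2. Inflorescences and tendrils therefore differ in plant material as well as in organ, and leaf is the only organ sequenced from both kinds of vine. By the labels the leaves of both pools lay opposite inflorescences, but for Pinot Meunier L2 the protocol lists tendrils as the structures collected. The protocols also write the first picovine line with the prefix 04C in place of 06C. No label says how many vines went into a library, and the replicates of a node are different lines, so the spread between them holds differences between lines as well as between samples. The p-values measure only the spread between these libraries.

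HSP101 is the cytosolic member of the Hsp100/ClpB family, a ring-shaped ATPase that works with HSP70 to pull proteins out of aggregates. In Arabidopsis it is needed for acquired thermotolerance. HsfA2 is a heat stress transcription factor, and in tomato and Arabidopsis it is scarce in unstressed leaves, accumulates in heat and maintains the transcription of chaperone genes through heat shock elements in their promoters. Both are also made without heat in some developing organs, HSP101 in maturing seeds and HsfA2 in tomato anthers.

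Depth was 7.36 to 15.18 M reads a library. The organ labels held in the marker genes. The floral genes MADS9, TM6, AP3, AG and MADS2 stood at 61.1 RPKM or more in all inflorescence libraries and at 3.85 or less in all tendril and leaf libraries. AP1 and VFUL-L stood at 23.3 RPKM or more in inflorescences and tendrils and at 3.04 or less in the leaf pools. NDHM, of the chloroplast NDH complex, was highest in the leaf pools. PSBP1 of photosystem II stood at 96.0 to 336 RPKM in inflorescences, at 337 and 637 in the leaf pools and at 175 to 868 in tendrils, which overlapped both other organs.

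HSP101 was one of the most abundant transcripts of the tendril and a minor one in inflorescences. In tendrils it stood at 483 RPKM at node 1 (14486 reads), 557 at node 2 (12371 reads) and 229 at node 3 (10479 reads). In inflorescences of 06C021V0046 it stood at 13.6, 8.25 and 1.45 RPKM at nodes 1, 2 and 3, on 497, 283 and 63 reads. The 06C008V0003 inflorescences held 12.1, 12.6 and 4.59 RPKM, on 531, 493 and 196 reads. All tendril values lay above all inflorescence values. The share of all tested genes with this feature was not counted, so it is not read as particular to HSP101. By rank of abundance within its library, HSP101 was 121st, 119th and 463rd in the tendrils of nodes 1, 2 and 3. It was 337th in the Pinot Meunier L2 leaf pool. In inflorescences its rank ran from 9455th (node 1) to 16829th (node 3), both in 06C021V0046. The tendril mean was 423 ± 172 RPKM (SD over nodes, n = 3) and the inflorescence mean 8.76 ± 4.91 (SD over nodes and lines, n = 6), a ratio of 48.3. In bulk tissue, a lower level from fewer expressing cells and from less RNA per cell cannot be told apart.

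HsfA2 was also higher in tendrils, with a smaller ratio and far less scatter. Its tendril values were 108 RPKM at node 1 (1529 reads), 128 at node 2 (1346 reads) and 124 at node 3 (2670 reads). The inflorescences of 06C021V0046 held 22.3, 22.5 and 17.3 RPKM along nodes 1, 2 and 3, and those of 06C008V0003 held 20.0, 23.4 and 19.2, on 353 to 434 reads a library. Tendrils and inflorescences did not overlap, again without a count of the share over all genes. The 6 inflorescence values differed by at most 1.36-fold among themselves, against 9.38-fold for HSP101. The mean was 120 ± 10.55 RPKM in tendrils (SD, n = 3) and 20.8 ± 2.36 in inflorescences (SD, n = 6), a ratio of 5.78. Of the 19761 genes tested, 2.13% stood at least 4-fold higher in tendrils than in inflorescences on the log2(RPKM + 1) scale, as both members did, a share printed for background only. Compared at the same node, the tendril was 35.4-fold (node 1) to 157-fold (node 3) above the 06C021V0046 inflorescence for HSP101 and 4.85-fold to 7.15-fold above it for HsfA2. Against 06C008V0003 it was 40.0-fold to 49.8-fold higher for HSP101 and 5.42-fold to 6.44-fold for HsfA2.

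**Figure D1:**
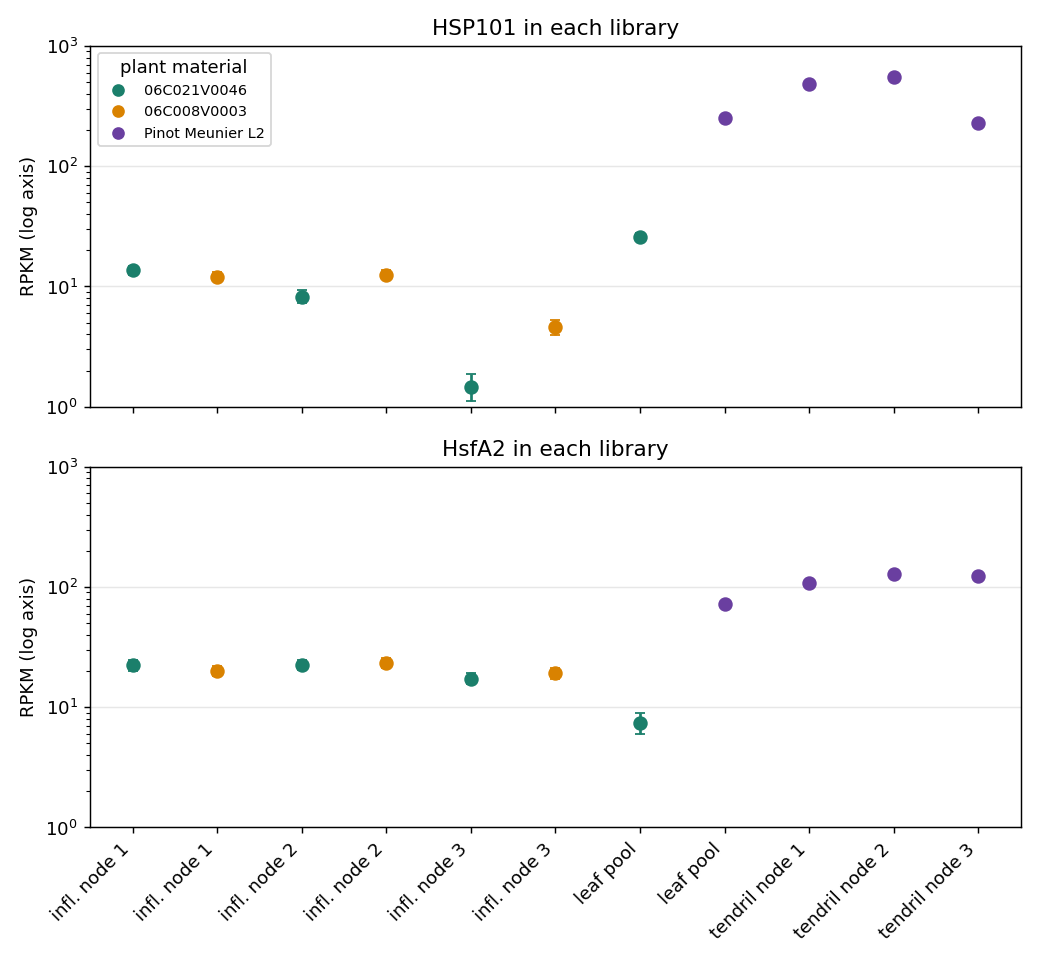
RPKM of HSP101 (top) and HsfA2 (bottom) in each of the 11 libraries on a log axis, coloured by plant material, with bars for the 95% counting interval, which covers counting error only. The 4 Pinot Meunier L2 libraries lie above the 7 picovine libraries for both genes, as for 4.20% of all tested genes. HSP101 reaches its lowest value, 1.45 RPKM, at inflorescence node 3.

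Ordered by level, HSP101 was highest in the node 2 tendril, followed by the node 1 tendril, the Pinot Meunier L2 leaf pool, the node 3 tendril, the 06C021V0046 leaf pool and inflorescences of node 1 (12.9 ± 1.11 RPKM, SD, n = 2), node 2 (10.4 ± 3.05) and node 3 (3.02 ± 2.22). Inflorescence nodes 1 and 2 overlapped between lines, and node 3 lay below both. For HsfA2 the order was tendril node 2, node 3 and node 1, the Pinot Meunier L2 leaf pool, inflorescence node 2 (23.0 ± 0.667 RPKM), node 1 (21.1 ± 1.64) and node 3 (18.2 ± 1.34), and last the 06C021V0046 leaf pool. For HSP101 the Pinot Meunier L2 leaf pool and the node 3 tendril did not overlap in their counting intervals (246 to 256 and 224 to 233 RPKM). The HsfA2 counting intervals of tendril nodes 2 and 3 overlapped (121.7 to 135.5 and 118.9 to 128.3 RPKM), with node 1 below both (102.8 to 113.8). The HsfA2 gaps between inflorescence nodes were small, with the higher node 1 library (22.3 RPKM) next to the lower node 2 library (22.5), and the lower node 1 library (20.0) next to the higher node 3 library (19.2), all within their counting intervals. Single libraries have no spread between replicates, so counting intervals are the only error available for tendrils and leaves.

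The leaf pools, where the organ is the same, showed nearly the same ratio for both genes. HSP101 stood at 251 RPKM in the Pinot Meunier L2 pool (11361 reads) and at 25.6 in the 06C021V0046 pool (713 reads), a ratio of 9.79 (95% counting interval 9.07 to 10.6). HsfA2 stood at 72.4 RPKM (1545 reads) and 7.32 (96 reads), a ratio of 9.88 (8.04 to 12.3). Each pool is 1 library, so these intervals cover counting error and not the difference between vines. A difference of at least 8-fold in this direction on the log2(RPKM + 1) scale was found for 84 of the 19761 genes (0.425%), and the median gene differed by -0.03. HSP101 ranked 59th and HsfA2 69th by this difference, at 3.24 and 3.14 on the log2 scale.

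Set beside the organ difference, the leaf ratio was smaller for HSP101 and larger for HsfA2. The tendril mean of HSP101 was 54.3 times the inflorescence mean of 06C021V0046, which is 5.55 times its leaf ratio. For HsfA2 the tendril mean was 5.80 times the 06C021V0046 inflorescence mean, which is 0.587 of its leaf ratio. Whether organ or plant material underlies either gap cannot be told apart in this design, since no tendril came from a picovine and no inflorescence from Pinot Meunier L2.

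**Figure D2:**
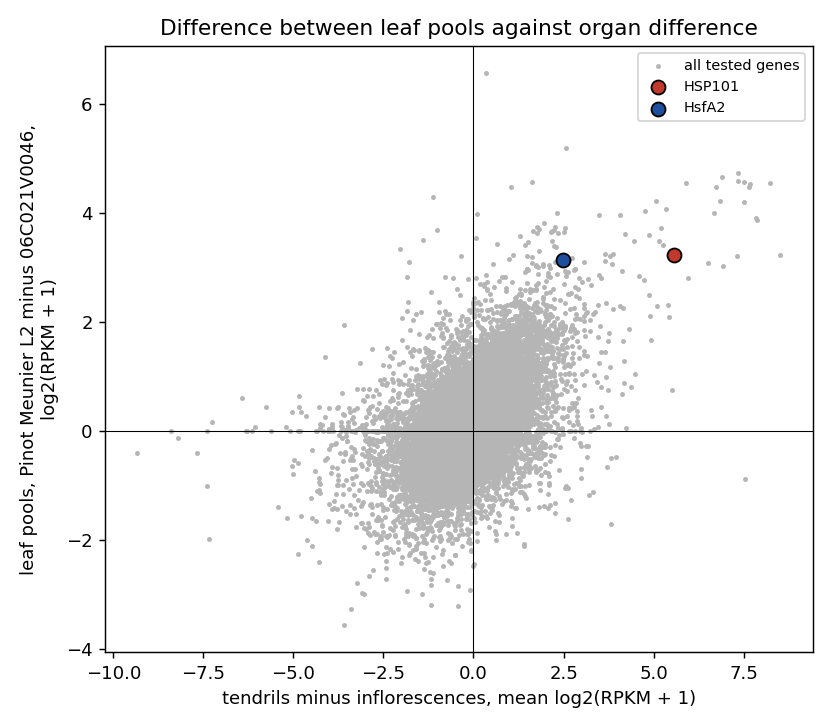
Each grey point is 1 of 19761 tested genes, with the difference of mean log2(RPKM + 1) between tendrils and inflorescences on the x axis and the log2(RPKM + 1) difference between the Pinot Meunier L2 and 06C021V0046 leaf pools on the y axis. HSP101 (5.57, 3.24) and HsfA2 (2.48, 3.14) lie at almost the same height, with HSP101 farther to the right.

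Within 1 plant material, the genes ran in opposite directions between leaf and inflorescence. In 06C021V0046, HSP101 was higher in the leaf pool than in its inflorescences, by 1.88-fold over node 1 (95% counting interval 1.67 to 2.11), 3.11-fold over node 2 (2.71 to 3.58) and 17.6-fold over node 3 (13.6 to 23.2). HsfA2 was higher in the inflorescences than in the leaf pool of that line, by 3.05-fold at node 1 (2.43 to 3.85), 3.07-fold at node 2 (2.45 to 3.89) and 2.36-fold at node 3 (1.88 to 2.99). Of all tested genes, 29.6% stood higher in the 06C021V0046 leaf pool than in all its 3 inflorescence libraries, as HSP101 did, and 23.0% stood lower than in all of them, as HsfA2 did. Pinot Meunier L2 gave the comparison of tendril with leaf. HSP101 was 1.93-fold higher at tendril node 1 (1.88 to 1.97) and 2.22-fold at node 2 (2.16 to 2.27), and at node 3 it stood at 0.911 of the leaf pool (0.887 to 0.935). HsfA2 was 1.495-fold (1.39 to 1.61), 1.77-fold (1.65 to 1.91) and 1.71-fold (1.60 to 1.82) higher in the tendrils of nodes 1, 2 and 3.

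The level of HSP101 relative to HsfA2 was nearly the same in the leaf pools of both plant materials. HSP101 stood at 3.50 times the HsfA2 level in the 06C021V0046 leaf pool and at 3.47 times in the Pinot Meunier L2 leaf pool, although the level of each gene differed between the pools. In tendrils the ratio was 4.47, 4.33 and 1.85 at nodes 1, 2 and 3. In all 6 inflorescence libraries HsfA2 was the more abundant transcript. The ratio of HSP101 to HsfA2 there was 0.612, 0.367 and 0.0842 along the nodes of 06C021V0046 and 0.605, 0.536 and 0.239 along those of 06C008V0003. In each of the 3 series along the nodes the ratio was lowest at node 3.

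**Figure D3:**
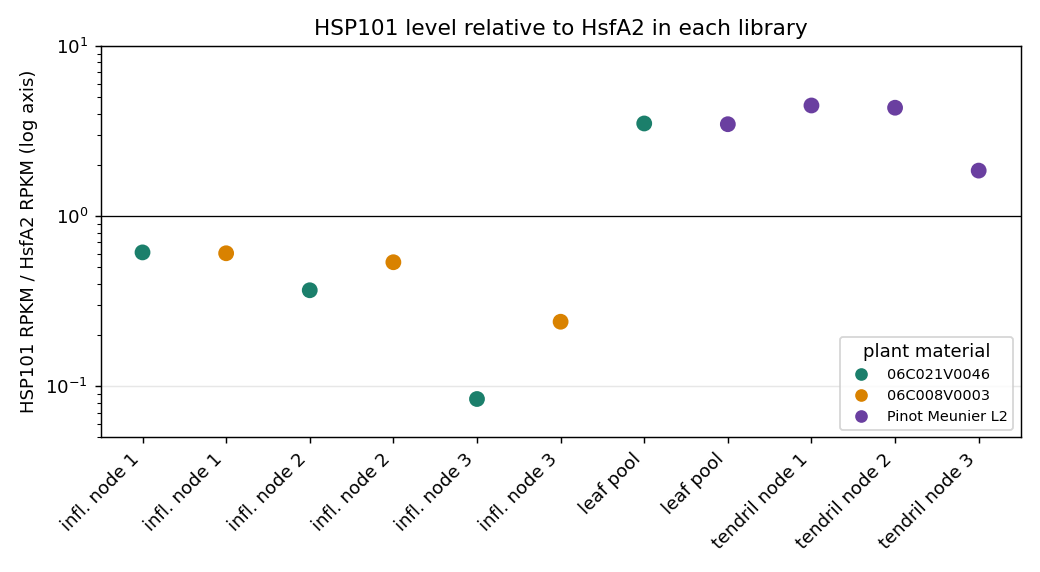
HSP101 RPKM divided by HsfA2 RPKM in each library, on a log axis with a line at 1, coloured by plant material. The leaf pools coincide at 3.50 and 3.47, the tendrils lie between 1.85 and 4.47, and the inflorescences lie below 1, with node 3 lowest in each line.

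Along the inflorescence nodes HSP101 had its lowest value at node 3 in both picovine lines, and its call as lower with node depended on the fit. In 06C021V0046 node 1 was 9.38-fold above node 3 (95% counting interval 7.21 to 12.4), with 1.65-fold between nodes 1 and 2 and 5.67-fold between nodes 2 and 3. In 06C008V0003 node 1 was 2.63-fold above node 3 (2.23 to 3.12), and nodes 1 and 2 differed by less than counting error, at a ratio of 0.962 (0.850 to 1.09). The slope over the nodes of the 6 inflorescence libraries was -0.95 ± 0.42 on the log2(RPKM + 1) scale per node (SE, 95% interval -1.885 to -0.017). This SE came from the fit to all 11 libraries, and it was 0.25 with the 6 inflorescence libraries alone. It did not pass the threshold of 0.05 in limma with all 11 libraries (adjusted p = 0.142), where 15.0% of genes were called, 8.64% lower and 6.34% higher. With plant material as a replicate block the slope was the same and passed the threshold (adjusted p = 0.028), where 13.6% of genes were called lower. It also passed with the 6 inflorescence libraries alone (0.028), with those and the block (0.0138, where 23.7% of genes were called lower), and when the 06C021V0046 leaf pool (0.0316) or the Pinot Meunier L2 leaf pool (0.0317) was left out. Without the node 3 library of 06C021V0046, which held the lowest value, the slope was -0.60 (adjusted p = 0.499), and with a pseudocount of 5 it was -0.59 (adjusted p = 0.302). The SE was 0.42 with both leaf pools, which enter the fit as 1 organ, and 0.24 with either of them left out. Inflorescence node 3 stood at least 2-fold below node 1 in both lines, on the log2(RPKM + 1) scale, for 12.4% of genes.

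For HsfA2 no change along the inflorescence nodes could be told from the spread. Its node 1 to node 3 ratio was 1.29 in 06C021V0046 (1.114 to 1.496) and 1.04 in 06C008V0003 (0.9045 to 1.1997). The slope was -0.10 ± 0.36 per node (95% interval -0.90 to 0.70, adjusted p = 0.87 in limma), and the adjusted p was 0.508 with the replicate block. As for HSP101, the SE of 0.36 holds the difference between the leaf pools and is not the scatter among inflorescences alone. It was 0.11 with either leaf pool left out and 0.10 with the 6 inflorescence libraries alone, at the same slope. In both lines the lowest HsfA2 level was at node 3, by a small margin. The difference between the slopes of HSP101 and HsfA2 was not tested.

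In tendrils HSP101 was 2.43-fold higher at node 2 than at node 3 (95% counting interval 2.37 to 2.50) and 2.11-fold higher at node 1 than at node 3 (2.06 to 2.17). Of the tested genes, 14.6% were at least 2-fold lower at tendril node 3 than at node 2 on the log2(RPKM + 1) scale, as HSP101 was. The HsfA2 libraries gave a ratio of 1.04 between nodes 2 and 3 (0.973 to 1.11) and its lowest tendril level at node 1. The tendril slopes were -0.54 ± 0.60 per node for HSP101 and 0.09 ± 0.51 for HsfA2, with 95% intervals of -1.86 to 0.78 and -1.035 to 1.225, and neither passed the threshold in limma (adjusted p = 1 for both). No gene passed it (0% called), with 971 genes at an unadjusted p under 0.05 and 0 called by limma-voom on the reads. Without the node 3 tendril the HSP101 slope was 0.20. The slopes of inflorescences and tendrils differed by -0.41 ± 0.73 for HSP101 (95% interval -2.03 to 1.205) and by -0.20 ± 0.63 for HsfA2 (-1.58 to 1.19), and neither difference passed the threshold (adjusted p = 1), where 3 genes (0.0152%) were called. The SEs of these fits also hold the difference between the leaf pools. With either leaf pool left out, the SE of the tendril slope was 0.35 for HSP101 and 0.16 for HsfA2. That of the slope difference was 0.42 for HSP101 and 0.19 to 0.20 for HsfA2.

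**Figure D4:**
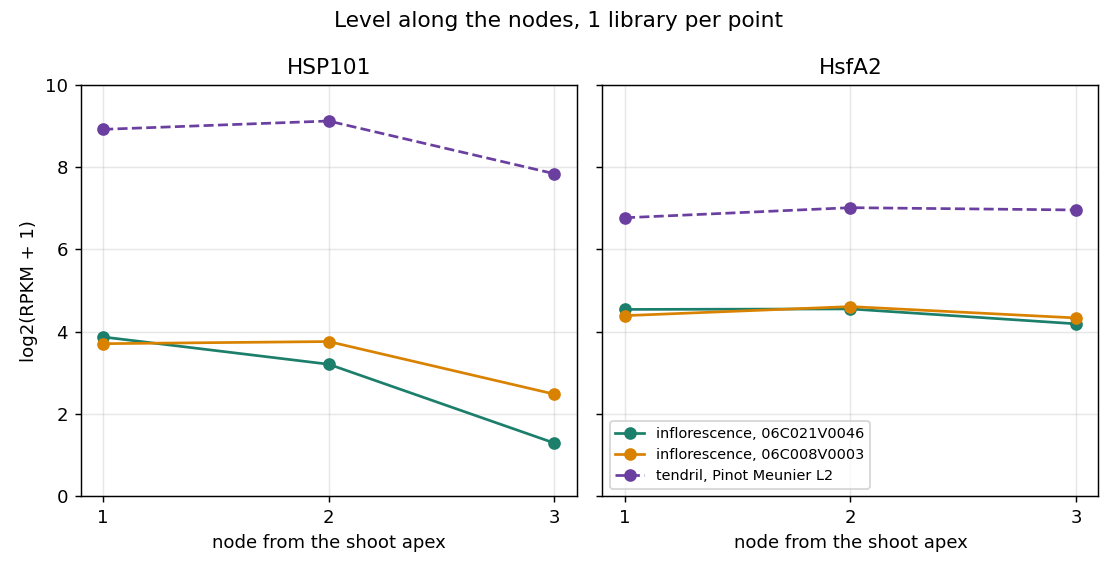
Log2(RPKM + 1) of HSP101 (left) and HsfA2 (right) at nodes 1, 2 and 3 from the apex, with solid lines for the inflorescences of each picovine line and a dashed line for Pinot Meunier L2 tendrils, 1 library a point. HSP101 is lowest at node 3 in all 3 series, whereas HsfA2 stays between 4.19 and 4.61 in inflorescences and between 6.77 and 7.02 in tendrils.

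The picovine lines were compared within the 6 inflorescence libraries. HSP101 in 06C008V0003 stood at 0.885 of its level in 06C021V0046 at node 1 (95% counting interval 0.782 to 1.00), at 1.52 times at node 2 (1.31 to 1.77) and at 3.16 times at node 3 (2.37 to 4.26). The interval reached 1 at node 1 and lay above 1 at nodes 2 and 3, and a change of the line difference with node was not tested. The mean difference over nodes, 06C008V0003 minus 06C021V0046, was 0.53 ± 0.26 on the log2 scale (95% interval -0.08 to 1.13), and it did not pass the threshold (adjusted p = 0.172), where 19.7% of genes were called, 10.9% higher and 8.76% lower in 06C008V0003. The difference was 0.19 without either node 3 library and 0.87 without either node 1 library. For HsfA2 the ratios were 0.896, 1.04 and 1.11, and the mean difference was 0.02 ± 0.12 (-0.28 to 0.31, adjusted p = 0.936).

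Among gene names and synonyms, the heat stress list held 1 gene beside the members, BiP (LOC100263033), whose name stands for an HSP70-type chaperone of the endoplasmic reticulum. Only 316 of the 25771 gene numbers had a name other than a locus number. The list therefore misses any heat stress gene known by a locus number alone, and it is not the heat stress set of grapevine. BiP was scarce, at 6.20, 7.23 and 5.40 RPKM in tendrils of nodes 1, 2 and 3 and at 3.42 RPKM in the Pinot Meunier L2 leaf pool. It had 0 reads in the 06C021V0046 leaf pool, which allows up to 0.159 RPKM (3 reads, counting error only). In inflorescences it stood at 2.51, 1.504 and 0.272 RPKM along the nodes of 06C021V0046 and at 2.25, 1.80 and 0.587 RPKM in 06C008V0003, on 8 to 67 reads. All its Pinot Meunier L2 values lay above all its picovine values, as held for 4.20% of all tested genes. Its node 3 inflorescences were lowest in each line, as for HSP101 and, by a small margin, HsfA2. The share of all genes lowest at node 3 in both lines was not counted. The BiP slope over inflorescence nodes was -0.62 ± 0.28 per node (adjusted p = 0.141, and 0.0231 with the replicate block). At these low levels its size depended on the scale, at -1.15 with a pseudocount of 0.1, -1.14 by limma-voom and -0.22 with a pseudocount of 5 (adjusted p = 0.2175, 0.18 and 0.167). Its tendril slope (-0.08 ± 0.39), the difference of its slopes (-0.54 ± 0.48) and its line difference (0.12 ± 0.16) did not pass the threshold either (adjusted p = 1, 1 and 0.59). Of the 3 genes of the heat stress list, 0 were called over inflorescence nodes in the 11 libraries, where 15.0% of all genes were, and 2 were called lower with the block, where 13.6% of all genes were. The difference between the leaf pools widens the SE of these genes in the 11-library fit. For the BiP slope over inflorescence nodes the SE was 0.28 with both pools and 0.14 with either left out.

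Likeness of pattern was measured as Pearson's r of log2(RPKM + 1) over the 11 libraries among 14526 other genes that averaged 5 RPKM or more. It is a description, since libraries share organs and plant materials. HSP101 and HsfA2 correlated at 0.856, which placed HsfA2 437th among the genes most like HSP101. Both were chosen with their levels by organ and plant material known, so this r is tied to the choice and is no separate support for a link. The gene most like HSP101 was LOC100257736 (r = 0.993), with 218 ± 72.8 RPKM in tendrils (SD, n = 3), 7.11 ± 3.40 in inflorescences (SD, n = 6), 160.0 in the Pinot Meunier L2 leaf pool and 12.3 in that of 06C021V0046. LOC100258060 followed at 0.987. The closest genes with a name were VVGT6 (0.958), CYN (0.937), and the protein kinases CIPK08 (0.927) and CIPK02 (0.920), then PLD (0.915). VVGT6 stood at 16.2 ± 7.35 RPKM in tendrils and 1.74 ± 1.32 in inflorescences.

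HsfA2 was most like LOC100267226 (r = 0.982), with 17.5 ± 1.45 RPKM in tendrils, 4.67 ± 1.21 in inflorescences, 11.6 in the Pinot Meunier L2 leaf pool and 2.24 in that of 06C021V0046, and then LOC100260930 (0.964). Its closest named genes were MYB12 (0.904), the aquaporin PIP2;3 (0.901), HSP101 (0.856), POD1 (0.848) and TIL (0.836). An r of at least 0.9 was found for 61 genes with HsfA2 and for 217 with HSP101.

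Both members had 3 features together, a leaf pool difference of at least 8-fold, a tendril level at least 4-fold over inflorescences and all 4 Pinot Meunier L2 libraries above all 7 picovine libraries. These limits were set after the values were seen. The last feature alone held for 830 genes (4.20%) and all of them together for 45 (0.228%). The other 43 genes had no name other than a locus number, as held for all but 316 of the 25771 gene numbers. Their median slope over inflorescence nodes was 0.03, against -0.04 for all tested genes, and 21 had a slope below 0, against 53.94% of all tested genes. Of the 43, 0 were called in either direction by limma in the 11 libraries, against 15.0% of all genes. Both leaf pools enter that fit as 1 organ, so the leaf pool difference that the 43 were kept for widens its spread. The count of 0 is therefore tied to how the 43 were chosen and is not read as a trait of these genes. With the replicate block 8 of the 43 were called lower, near the share of 13.6% over all genes. Between tendril nodes 2 and 3, 17 of the 43 stood at least 2-fold lower at node 3, a limit that 14.6% of all tested genes met, and the median of the 43 was -0.80 on the log2 scale, against 0 for all tested genes. The 43 were kept for their tendril level, whereas genes near 0 RPKM in tendrils cannot meet this limit on the log2(RPKM + 1) scale. The 2 sets are therefore not matched in level, and no conclusion is drawn from the gap.

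In the RefSeq table of another assembly, which was used for gene order only, no annotated gene overlapped HSP101 or HsfA2, and both were annotated as protein-coding. Of the 3 genes on each side that are in the files, 6 neighbours of HSP101 and 5 of HsfA2 passed the filter. In none of these 11 did all Pinot Meunier L2 libraries lie above all picovine libraries. As 4.20% of all tested genes had this feature, its absence from 11 genes does not set them apart from other genes. Their leaf pool differences ran from -0.23 to 1.78 beside HSP101 and from -0.85 to 0.75 beside HsfA2 on the log2 scale, against 3.24 and 3.14 for the members. The 6 values beside HSP101 were -0.23, 0.08, 0.30, 1.07, 1.70 and 1.78. A leaf pool difference of at least 2-fold in this direction was found for 10.4% of all tested genes.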

How the data were processed

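Single-end Illumina mRNA libraries were deposited as 1 RPKM value per gene number and library, a unit that the authors' file names state. Per the submitters' processing notes, the tools included TopHat 1.2.0 and Bowtie 0.12.7. Neither the genome build nor the annotation or counter is given in the sources used here, nor is the treatment of reads shared by similar copies. Names came from the RefSeq table of ASM3070453v1, which held 18647 of 25771 gene numbers. A name other than a locus number was found for 316 of them. Sequences of these genes were not used here, so protein relatives and promoter motifs were not analysed here.

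Whole reads were worked back from the RPKM values. All 24365 genes above 0 came out whole (100%, tolerance 0.01 read), with implied gene lengths whole within 0.05 base for 99.32% of them, and of 3020 bases for HSP101 and 1424 for HsfA2. Counting intervals (95%, exact Poisson for a level, exact binomial for a ratio) cover counting error only, and reads carried no molecular identifiers.

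Values were tested as log2(RPKM + 1) with limma 3.58.1 (R 4.3.3), with variances shrunk on a trend, over 19761 genes, two-sided, with Benjamini-Hochberg adjustment over all of them. That scale understates changes of low genes. Slopes came from 1 model over 11 libraries with organ means and a slope on node in inflorescences and in tendrils. The picovine lines were compared in 6 libraries with node as a factor. Replicate numbers in inflorescences mark the picovine line, so the replicate block was plant material. The line difference correlated across genes between nodes 1 and 2 (0.629), 1 and 3 (0.546) and 2 and 3 (0.689), so same-numbered libraries deviated together. The scripts were tested on simulated data. The members, lists and tests were chosen with earlier results of these data known. Named genes were the members, the heat stress list by gene symbol, and for each member the 5 named genes and 2 locus numbers most alike in pattern.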

Additional observations from a re-analysis of the deposited data

How the results depend on the processing

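Alternatives were pseudocounts of 0.1 and 5, no filter, quantile and median-ratio scaling, the replicate block, other sets of libraries and, added after seeing the data, limma-voom on the reads. Of 140 alternative values for 8 tests of HSP101 and HsfA2, 126 kept direction and side of the threshold, 5 passed it and 9 changed sign, none of those past it. The inflorescence slope of HSP101 passed with the replicate block (-0.95, adjusted p = 0.028), with 6 libraries alone (-0.95, 0.028) and there with the replicate block (-0.95, 0.0138), and without either leaf pool. With 1 library left out it ran from -1.11 to -0.60. The replicate block changed no other call of the members. The tendril slopes with 1 library left out ran from -1.28 to 0.20 for HSP101 and from -0.056 to 0.25 for HsfA2, and the HSP101 slope difference from -1.15 to 0.33. The line difference of HsfA2 was -0.091 after quantile and -0.12 after median-ratio scaling, and -0.047 to 0.10 with 1 library left out. For BiP the tendril slope was 0.012 after quantile scaling and -0.36 to 0.19 with 1 library left out. The cause was not tested. Genes called over all genes ran from 153 (without the node 3 library of 06C021V0046) to 8503 (6 libraries with the block) for the inflorescence slope, against 2960 as reported and 4588 with the replicate block, from 11 (without the filter) to 5531 (limma-voom) for the line difference, against 3892, from 0 to 1180 (without the node 1 tendril) for the tendril slope, against 0, and from 0 (limma-voom among others) to 170 (without the node 3 tendril) for the slope difference, against 3. The lowest value of either member rests on 63 reads. Each tendril node and each leaf pool has 1 library, so their values have no replicate check. The line difference has no fit with the block, since the block is the line.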
